A study of Homo sapiens
Mus musculus with 24 samples.

Results

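The integrated stress response and the unfolded protein response of the tumor cells were followed through 10 human genes, ATF3, ATF4, DDIT3, TRIB3, ASNS, CHAC1, HSPA5, XBP1, HERPUD1 and PPP1R15A. They were chosen by name from the 18880 genes of the human count table, and all 10 were present and passed the filter on low counts. The data are 3′ RNA sequencing of whole tumors from 24 mice. Reads were counted on the human genome for the tumor cells and on the murine genome for the host. Human counts per library ran from 7796231 to 17621273 and murine counts from 3664056 to 9892470, and human reads made up 47.8 to 74.0% of the total.

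Every mouse was a female of the B6/Rag1KO strain, which lacks mature T and B lymphocytes and keeps innate immune cells, and every mouse carried a subcutaneous tumor of MDAMB231 cells, a line of human triple-negative breast adenocarcinoma, injected at 14 weeks of age. By the sample labels, the tumor cells were injected after 10 weeks on diet. The CTRL group (n = 4) was fed the high-fat diet and given weekly saline injections. The Chemo group (n = 5) was fed the same diet and given weekly doxorubicin and cyclophosphamide. The MC group (n = 5) was fed the high-fat diet with moringa concentrate, a seed extract rich in isothiocyanates, and the MC + Chemo group (n = 6) was given that diet and both drugs. The Lean group (n = 4) was fed a lean diet without an intervention. All tumors derive from 1 cell line, so the libraries are replicates of mice and not of tumor lines. Libraries are named here by group and mouse number. MC + Chemo 5 is MC + Chemo by its title and MC by another label field.

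In the integrated stress response, kinases that sense amino acid shortage, heme shortage, viral RNA or unfolded protein phosphorylate the initiation factor eIF2, which slows translation in general while the transcription factor ATF4 is made more efficiently. ATF4 then raises genes for amino acid supply and, together with DDIT3 (CHOP), genes linked to cell death and to recovery of translation. The unfolded protein response of the endoplasmic reticulum (ER) adds the IRE1 branch, which splices XBP1 mRNA, and the ATF6 branch, which raises chaperones such as HSPA5 (BiP). Several of these steps act on translation, splicing or phosphorylation, and counts per gene do not measure them. A higher or lower level in a whole tumor also cannot tell apart a change in the number of tumor cells that express a gene from a change in RNA per cell.

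The 4 CTRL libraries were not alike in the markers of the line. VIM, the mesenchymal filament vimentin, had 71918 normalized counts in CTRL 17 and 50209 in CTRL 44. The remaining CTRL libraries, 31 and 70, had 10488 and 9838. In the other 22 libraries it ran from 4402 to 24619. The epithelial keratin KRT18 was at 2125 in CTRL 17 and 3423 in CTRL 44, and at 8014 to 20452 in the other 22. KRT8 was at 610 and 1467 in the same CTRL libraries, and at 1992 to 5364 elsewhere. VIM, CD44, KRT18 and KRT8, all expressed by the labelled line, were detected in all 24 libraries, and so were 3 luminal genes. ESR1, the estrogen receptor, was at 2.59 to 88.3 normalized counts (median 29.0), ERBB2 at 192 to 769 (median 458) and GATA3 at 101 to 708 (median 388), the last 2 of which were lowest in CTRL 17. Every difference from CTRL below rests on these 4 libraries. It is given again without CTRL 17 and CTRL 44 where that moved it by over 1.5 times.

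None of the 10 genes was called in any of the 7 comparisons. A gene was called at a Benjamini-Hochberg adjusted p under 0.05, a mean normalized count over 30 and a fold change over 1.5, in the quasi-likelihood F test of edgeR. DESeq2 also called 0 of 10 in each of the 7. The median log2 fold change of the 10 genes lay between -0.07 and 0.14 in the 7 comparisons, and that of all genes tested between -0.02 and 0.01. The single differences ran from -0.60 to 0.78 on the log2 scale.

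**Figure D1:**
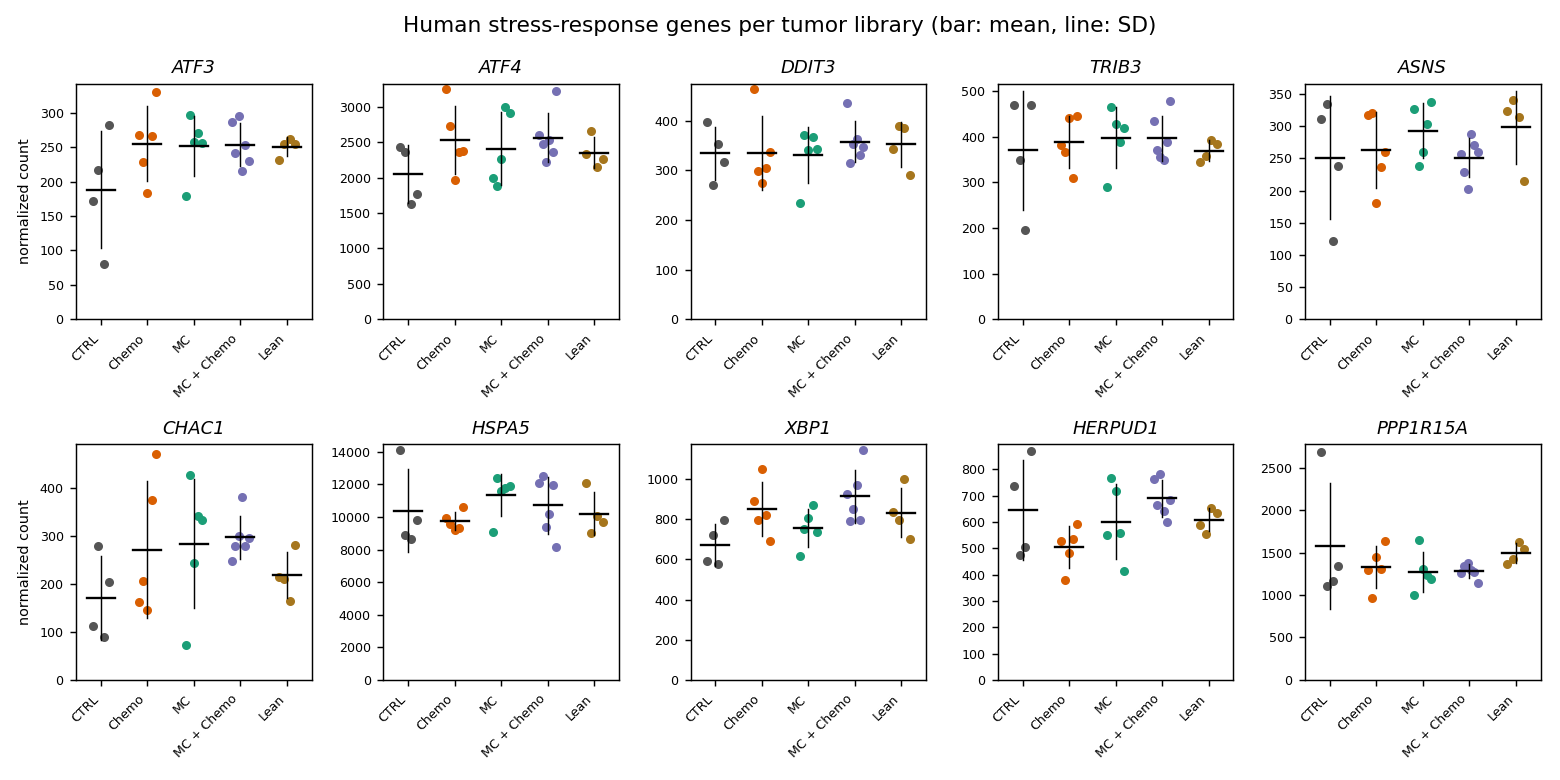
Normalized counts of the 10 human genes (vertical axes, starting at 0) in each of the 24 tumor libraries, by group, with the group mean as a bar and the SD as a line. MC + Chemo lies above Chemo without overlap for HERPUD1. The CTRL libraries have a larger SD than those of each other group for ATF3, TRIB3, ASNS, HSPA5, HERPUD1 and PPP1R15A.

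The transcription factors stood at different levels and none separated the groups. ATF4, the central factor of the response, had 2440, 2358, 1635 and 1776 normalized counts in CTRL 17, 31, 44 and 70. The Chemo libraries had 3250, 2734, 1972, 2368 and 2375, and those of MC had 1991, 1886, 2265, 3000 and 2921. MC + Chemo ran from 2216 (median 2505) to 3230, and Lean had 2333, 2657, 2146 and 2269. The ranges of all groups overlapped, and the highest value was in Chemo 19 and the lowest in CTRL 44. The difference of MC + Chemo from CTRL was 0.31 (SE 0.17) on the log2 scale with an edgeR adjusted p of 0.287 (two-sided exact permutation p = 0.0476, unadjusted).

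ATF3, a stress-induced factor downstream of ATF4, was at 171, 218, 80.3 and 283 in the CTRL libraries, the lowest of which was again CTRL 44. The Chemo libraries were at 268, 228, 183, 266 and 330, and those of MC at 179, 297, 258, 270 and 257. MC + Chemo ran from 215 to 295 (median 248), and Lean was at 231, 255, 262 and 254. The CTRL range enclosed most of the other libraries. The means of the 4 other groups lay within 251 to 255, so the log2 difference from CTRL was nearly the same in each, at 0.43 (SE 0.25) for Chemo, 0.41 (SE 0.25) for MC, 0.42 (SE 0.24) for MC + Chemo and 0.41 (SE 0.24) for Lean. These comparisons share the CTRL libraries. Without CTRL 44 the differences were 0.18 to 0.19 in the obese groups and 0.16 in Lean, and without CTRL 17 and CTRL 44 they were 0.0158, 0.00261, 0.00531 and 0.00275 in the order above.

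DDIT3, the factor CHOP that links prolonged stress to apoptosis, had mean normalized counts of 335 ± 53.8 (SD) for CTRL, 336 ± 74.9 for Chemo, 332 ± 56.0 for MC, 358 ± 41.7 for MC + Chemo and 352 ± 46.0 for Lean. XBP1, the factor of the IRE1 branch, varied more between groups than the other 9 genes, with 40.1% of its variance on the log2 scale between groups against a median of 23.0% over 12673 genes. Its CTRL libraries were at 593, 720, 577 and 798 and its Chemo libraries at 892, 797, 1053, 822 and 694. MC was at 618, 750, 808, 872 and 736, MC + Chemo at 791 to 1144 (median 890) and Lean at 837, 795, 998 and 703. MC + Chemo overlapped CTRL only between its lowest library, at 791, and CTRL 70, at 798.

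The direct targets of ATF4 among the 10 genes were no more separated. ASNS, which makes asparagine, had means of 251 ± 95.6 for CTRL, 263 ± 58.4 for Chemo, 293 ± 42.5 for MC, 251 ± 30.5 for MC + Chemo and 298 ± 56.4 for Lean. TRIB3, a pseudokinase that restrains ATF4 and CHOP activity, had means of 371 ± 131, 389 ± 57.2, 398 ± 66.4, 397 ± 50.1 and 370 ± 22.7 in the same order, and its lowest CTRL library, CTRL 44, was at 195. The log2 differences of DDIT3 and TRIB3 in all 7 comparisons were within 0.11 of 0 with every CTRL library in the fit. Without CTRL 17 and CTRL 44 the DDIT3 differences from CTRL ran from 0.17 (MC) to 0.27 (MC + Chemo), with Lean at 0.26 and Chemo at 0.18. Those of TRIB3 were then all negative, from -0.15 (Lean) to -0.047 (MC).

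CHAC1, an enzyme that degrades glutathione, was the most variable of the 10, with an SD within groups of 0.67 on the log2 scale against a median of 0.31 over the 12673 genes. CTRL was at 112, 279, 88.9 and 205, Chemo at 162, 206, 146, 375 and 472, and MC at 73.1, 428, 243, 341 and 334. MC + Chemo was at 249 to 382 (median 288) and Lean at 216, 211, 165 and 282. Both the lowest library, MC 6, and the highest, Chemo 67, came from treated mice.

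The genes of the ER itself differed widely in level. HSPA5, the ER chaperone BiP, was at 14144, 8926, 8668 and 9808 in the CTRL libraries, and its Chemo mean was 9749 ± 559 (SD, n = 5). The MC libraries were at 9097, 12415, 11583, 11792 and 11915, MC + Chemo ran from 8168 to 12531 (median 11090), and the Lean mean was 10212 ± 1342 (n = 4). CTRL 17 was the highest of all 24 libraries. HERPUD1, a membrane protein of ER-associated degradation, was at 736, 475, 504 and 870 in CTRL and at 527, 380, 481, 536 and 592 in Chemo. The MC libraries were at 552, 767, 717, 557 and 415, MC + Chemo ran from 600 to 781 (median 673), and Lean was at 590, 555, 654 and 634. All 6 MC + Chemo libraries lay above all 5 Chemo libraries, and no other pair of treated groups was separated for this gene.

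PPP1R15A (GADD34) is the phosphatase subunit that reverses eIF2 phosphorylation. It was at 2681, 1110, 1168 and 1345 in CTRL, at 1292, 968, 1450, 1305 and 1632 in Chemo and at 1003, 1645, 1309, 1232 and 1190 in MC. MC + Chemo ran from 1136 to 1383 (median 1287), and Lean was at 1369, 1420, 1628 and 1545. The high CTRL mean, 1576 ± 744, came from CTRL 17, as the other CTRL libraries lay within the range of Chemo. When the 5 group means of each gene were ordered, neighbours differed by less than the larger of their SDs in all 40 neighbouring pairs, and the libraries of all 40 pairs overlapped. Neighbours are by construction the closest groups. The count therefore does not cover groups farther apart, such as MC + Chemo and Chemo for HERPUD1.

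**Figure D2:**
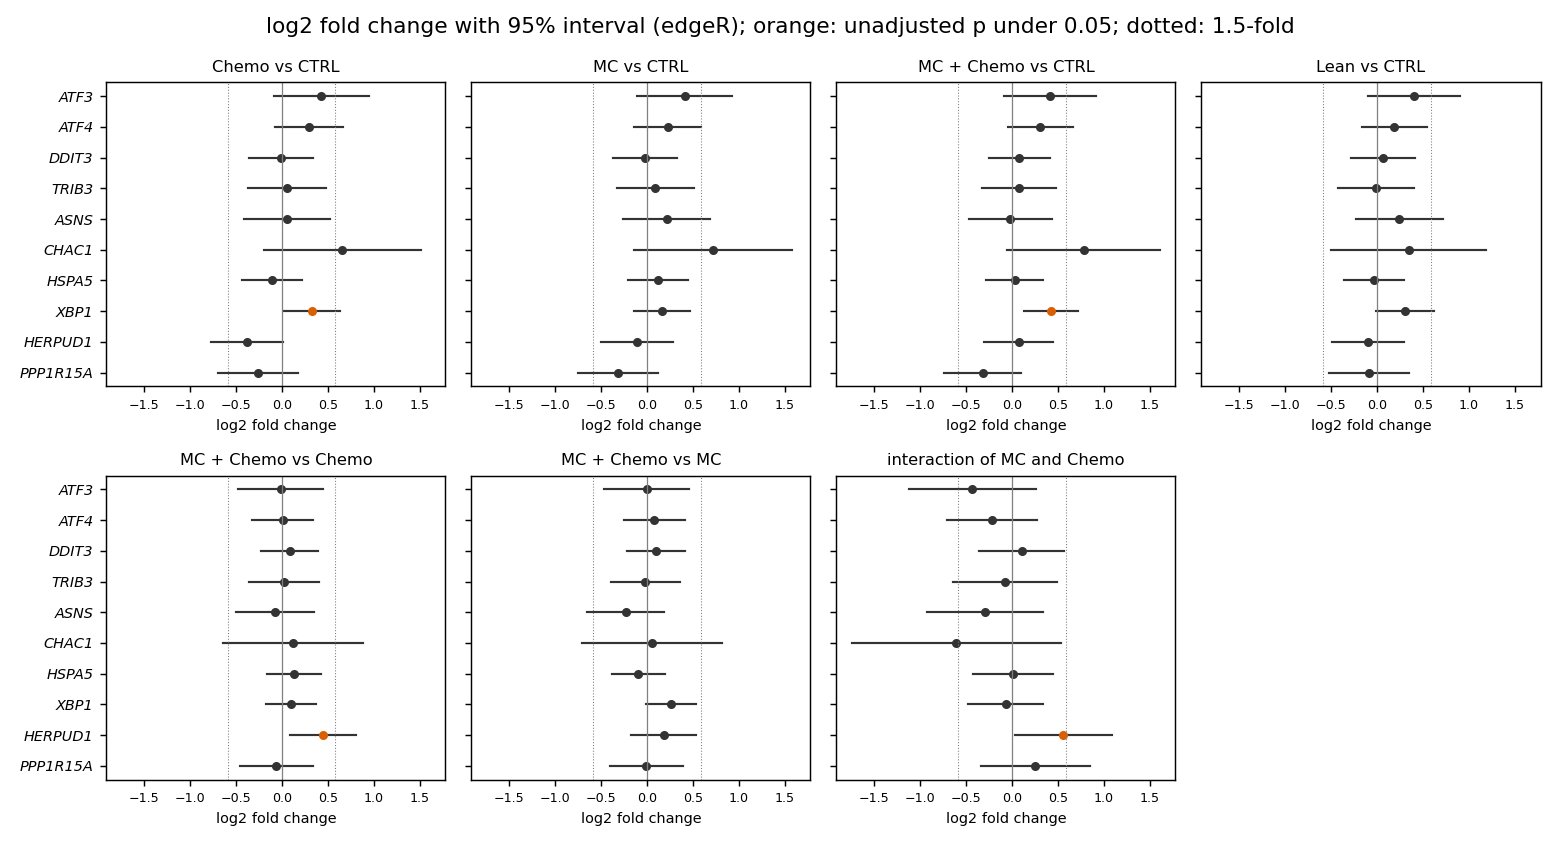
Difference of each of the 10 human genes (rows) in the 7 comparisons (panels), as log2 fold change with its 95% interval from edgeR; dotted lines mark a 1.5-fold change and orange marks an unadjusted p under 0.05. Only XBP1 and HERPUD1 have orange points, and the CHAC1 intervals are the widest.

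The first question was whether doxorubicin and cyclophosphamide changed these genes in obese hosts. In Chemo against CTRL edgeR called 0% of the 16434 genes tested and DESeq2 3.03%, and 18.2% of the genes had an unadjusted edgeR p under 0.05. The edgeR count was 1174 without CTRL 31 and 615 without CTRL 70, and 0 without CTRL 17, CTRL 44 or both. Of the 10 stress genes 6 had higher fitted levels in Chemo, 1 had an unadjusted p under 0.05, and 0 were called by either tool. That gene was XBP1, at 0.33 (SE 0.15) or 1.02- to 1.55-fold by its 95% interval, with p = 0.0361 and an adjusted p of 0.238 from edgeR, and an exact permutation p of 0.0714. Without CTRL 17 and CTRL 44 it was at 0.15. HERPUD1 was at -0.37 (SE 0.19) with an adjusted p of 0.294, or at -0.20 without CTRL 70. CHAC1 was at 0.66 (SE 0.41), with an interval of 0.873- to 2.86-fold that includes no change. It ran from 0.37 to 0.99 as each library was left out and was at 0.16 without CTRL 17 and CTRL 44. The 95% interval lay within 1.5-fold in either direction for 4 of the 10 genes, so for the other 6 these libraries leave a change past the fold criterion possible.

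The effect of MC in the diet without the drugs was examined next. In MC against CTRL edgeR called 0% of all genes and DESeq2 0.0704%, and 10.7% had an unadjusted p under 0.05. Of the 10 genes 7 had higher fitted levels in MC, and 0 had an unadjusted p under 0.05 or were called by either tool. CHAC1 had the largest difference, 0.72 (SE 0.41; 0.911- to 2.99-fold; edgeR adjusted p = 0.519), and XBP1 was at 0.16 (SE 0.15, adjusted p = 0.680). Without CTRL 17 and CTRL 44 these became 0.23 and -0.00987.

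The combination was then compared with CTRL. Here edgeR called 263 of 16434 genes, 1.6%, of which 75 were higher and 188 lower, and DESeq2 called 4.47%, while 22.7% had an unadjusted p under 0.05. Without CTRL 17, without CTRL 44 or without both, edgeR called 0 genes, as it also did in Chemo against CTRL. Of the 10 stress genes 8 had higher fitted levels in MC + Chemo and 0 were called. XBP1 was the only one with an unadjusted p under 0.05, at 0.43 (SE 0.14; 1.10- to 1.65-fold) with edgeR p = 0.00676 and an adjusted p of 0.0904, and the exact permutation p was 0.0143. DESeq2 gave XBP1 an adjusted p of 0.0465, and edgeR without CTRL 70 gave 0.0462 at a log2 difference of 0.52, but neither fold passed 1.5. Without CTRL 17 it was 0.37 (adjusted p = 0.269), without CTRL 44 it was 0.39 (0.191), and without both it was 0.25 (0.564). CHAC1 was at 0.78 (SE 0.40; 0.966- to 3.06-fold; adjusted p = 0.249), or 0.29 without CTRL 17 and CTRL 44. PPP1R15A was at -0.32, and the difference was 0.065 without CTRL 17. The part of the vimentin and keratin difference of CTRL 17 and CTRL 44 in these values was not tested beyond leaving the libraries out.

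The comparison of MC + Chemo with Chemo asks what MC added to the drugs, and it does not use the CTRL libraries other than for the spread. Here edgeR called 0% and DESeq2 0.0506% of all genes, and 10.4% had an unadjusted p under 0.05. Of the 10 genes 7 had higher fitted levels in MC + Chemo, 1 had an unadjusted p under 0.05 and 0 were called by either tool. That gene was HERPUD1, with a difference of 0.45 (SE 0.17) or 1.07- to 1.75-fold by its 95% interval. It had an edgeR p of 0.0159, an adjusted p of 0.380 and an exact permutation p of 0.00216, the smallest that 6 against 5 libraries can give. Its groups did not overlap. Over the whole table, 1.87% of genes had groups that did not overlap in this comparison, and of the 10 genes it was 1. The HERPUD1 difference stayed between 0.36 and 0.50 when each library was left out in turn. HSPA5 was at 0.13 (SE 0.14), XBP1 at 0.10 (SE 0.13), and the 95% interval lay within 1.5-fold for 8 of the 10 genes.

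Against MC, the addition of the drugs gave 0% called by edgeR and 0.0265% by DESeq2, with 7.95% of genes at an unadjusted p under 0.05. Of the 10 genes 6 had higher fitted levels in MC + Chemo, and 0 had an unadjusted p under 0.05 or were called by either tool. XBP1 was at 0.26 (SE 0.13; 0.992- to 1.45-fold) with an edgeR p of 0.0600 and an adjusted p of 0.638 (exact permutation p = 0.0433). ASNS was at -0.23 (SE 0.20), and HERPUD1 at 0.19 (SE 0.17).

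Whether MC acted differently with and without the drugs was tested as an interaction. Of all genes, edgeR called 0% and DESeq2 0.0053%, and 9.74% had an unadjusted p under 0.05. HERPUD1 was the 1 gene of the 10 with an unadjusted p under 0.05, with an interaction of 0.56 (SE 0.25, 1.02- to 2.12-fold) and an edgeR adjusted p of 0.511, and 0 of 10 were called by either tool. Its fitted MC difference was -0.11 without the drugs and 0.45 with them. The interaction lay between 0.38 and 0.68 with each library left out and was 0.62 without CTRL 17 and CTRL 44. CHAC1 was at -0.60 (SE 0.55) and ATF3 at -0.43 (SE 0.33), or at -0.11 and -0.013 without CTRL 17 and CTRL 44. The interval lay within 1.5-fold for 3 of the 10 genes.

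Lean hosts were set against obese CTRL hosts in a fit of all 24 libraries with 16588 genes tested. The tools called 0% (edgeR) and 0.0053% (DESeq2), and 7.08% of genes had an unadjusted p under 0.05. Of the 10 genes 6 had higher fitted levels in Lean, and 0 had an unadjusted p under 0.05 or were called by either tool. XBP1 was at 0.30 (SE 0.15, edgeR adjusted p = 0.712), ATF3 at 0.41, CHAC1 at 0.35 (SE 0.41) and ASNS at 0.25 (SE 0.23). Without CTRL 17 and CTRL 44 they were at 0.14, 0.00275, -0.14 and 0.069, and ASNS was at 0.018 without CTRL 44 alone.

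The other genes of the pathways were read from lists of 37 ATF4 target and amino acid genes, 23 ER chaperone and folding genes, 25 ER export and degradation genes and 20 sensors and parts of the eIF2 machinery. Of these lists, edgeR called only 1 gene, CEBPB in MC + Chemo against CTRL, and it did so in no other comparison. DESeq2 called 2 ATF4 targets higher, CEBPB and GDF15, and 1 chaperone gene lower, ERO1B, in MC + Chemo against CTRL, and ERO1B lower in Chemo against CTRL. The 4 lists hold 105 genes. Of all genes, edgeR called 1.6% and DESeq2 4.47% in MC + Chemo against CTRL, and DESeq2 3.03% in Chemo against CTRL. CEBPB is a transcription factor that dimerizes with ATF4 and is also induced by inflammatory signals. It rose by 0.75 (SE 0.18) with an edgeR adjusted p of 0.0415, and its 4 CTRL libraries, at 817 to 1177, lay below all 6 MC + Chemo libraries, at 1250 to 2419. Groups did not overlap for 5.26% of all genes in this comparison. The call was lost under 9 of 19 alternatives. The difference was 0.68 without CTRL 17 (adjusted p = 0.153), 0.69 without CTRL 44 (0.108) and 0.54 without both (0.356). P4HB, a protein disulfide isomerase, passed the adjusted p at 0.0386 but not the fold criterion, at 0.52 (SE 0.12). It was at 2484 to 3676 in CTRL and 4283 to 5171 in MC + Chemo, and the difference was 0.30 (adjusted p = 0.373) without CTRL 17 and CTRL 44. ERO1B, an oxidase of the ER that drives disulfide formation, had the lowest p of the chaperone list in Chemo against CTRL. It was at 26.7 to 80.2 normalized counts in CTRL and 16.96 to 29.1 in Chemo, a difference of -1.21 (SE 0.36) with an adjusted p of 0.107 from edgeR and 0.0397 from DESeq2. In MC + Chemo against CTRL it was also at -1.21 (SE 0.34), with adjusted p values of 0.0587 and 0.0216. Its differences were -0.36 and -0.35 without CTRL 17 and CTRL 44. GDF15, a secreted stress cytokine named here after its values were seen, was at 1.42 (SE 0.47) in MC + Chemo against CTRL, with adjusted p values of 0.0905 from edgeR and 0.0292 from DESeq2, and at 0.77 without CTRL 17 and CTRL 44.

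In MC + Chemo against CTRL an unadjusted p under 0.05 was found for 4 of 37 ATF4 target genes, 6 of 23 chaperones, 4 of 25 export and degradation genes and 3 of 20 sensors, beside 22.7% of all genes. The medians of the lists were 0.04, 0.22, 0.17 and 0.00977 on the log2 scale. In Chemo against CTRL the same counts were 9, 2, 1 and 3, beside 18.2% of all genes, with medians of -0.06, 0.02, 0.00657 and -0.02. The ATF4 targets with the lowest p there were SLC7A11, the cystine transporter, at -1.59 (SE 0.54, edgeR adjusted p = 0.142) and PSAT1, an enzyme of serine synthesis, at -0.84 (SE 0.29, adjusted p = 0.151). SLC7A11 ran from -2.01 to -0.61 and PSAT1 from -1.14 to -0.48 as each library was left out. Both were called without CTRL 31 (adjusted p = 0.0388 and 0.0300) and both were nearest to 0 without CTRL 17. Without CTRL 17 and CTRL 44 they were at -0.61 and -0.39. In MC against CTRL the counts were 2, 2, 0 and 0, beside 10.7% of all genes, with medians of 0.02, 0.12, -0.04 and -0.07.

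In MC + Chemo against Chemo, 30 of 37 ATF4 target genes, 20 of 23 chaperones, 18 of 25 export and degradation genes and 15 of 20 sensors had higher fitted levels in MC + Chemo, beside 8427 of all 16434 genes. The medians were 0.16, 0.14, 0.18 and 0.05, and that of all genes was 0.00912. Genes of 1 list are not independent of each other, and 1, 3, 4 and 1 of them had an unadjusted p under 0.05, beside 10.4% of all genes, with 0 called by edgeR or DESeq2. DNAJB9 (ERdj4), an ER co-chaperone of BiP and a target of XBP1, was at 0.65 (SE 0.21, edgeR adjusted p = 0.332), with 149 to 244 normalized counts in Chemo and 278 to 395 in MC + Chemo. It was the 1 of the 23 chaperones, and the 1 of the 105 genes of the 4 lists, whose groups did not overlap, beside 1.87% of all genes. DERL1, a channel component of ER-associated degradation, was at 0.45 (SE 0.16, adjusted p = 0.336), and CRELD2, an ER stress-inducible folding factor, at 0.37 (SE 0.14; 0.381).

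In MC + Chemo against MC the counts at an unadjusted p under 0.05 were 1, 3, 3 and 0, beside 7.95% of all genes. The medians were 0.05, 0.07, 0.16 and 0.06, and CEBPB was at 0.58 (SE 0.17, edgeR adjusted p = 0.597). For the interaction the counts were 3, 1, 4 and 2, beside 9.74% of all genes, with medians of 0.14, 0.05, 0.09 and 0.12. DERL1 was at 0.66 (SE 0.23, adjusted p = 0.511) and DNAJB9 at 0.69 (SE 0.32; 0.511). In Lean against CTRL the medians were 0.04, 0.06, -0.04 and -0.05, and SLC7A5, a transporter of large amino acids, was at 0.84 (SE 0.30, adjusted p = 0.685).

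Lists of 21 immediate early and heat shock genes and 20 hypoxia genes were read beside these, since handling of tissue and low oxygen also move stress genes. In Chemo against CTRL 5 of 21 and 6 of 20 had higher fitted levels, with medians of -0.28 and -0.32. In MC + Chemo against Chemo it was 17 of 21 and 16 of 20, with medians of 0.20 and 0.16. HSPA8, a cytosolic chaperone, was at 0.68 (SE 0.22, edgeR adjusted p = 0.332) and DNAJB1, its co-chaperone, at 0.35 (SE 0.13; 0.368). The interaction of HSPA8 was 1.12 (SE 0.33; 0.511). In MC + Chemo against CTRL the medians were -0.08 and -0.17. edgeR called 0 genes of both lists in all 7 comparisons. DESeq2 called 1, the hypoxia gene P4HA2 in MC + Chemo against CTRL, beside 4.47% of all genes. P4HA2 was at 0.61 (SE 0.16) with an adjusted p of 0.0126 from DESeq2, against 0.0513 from edgeR, and at 0.34 without CTRL 17 and CTRL 44. The part of both lists in the HERPUD1 difference was not tested. In the human libraries the mitochondrial share of reads ran from 4.50 to 9.24%.

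The same libraries hold the murine counterparts of the 10 genes, counted on the murine genome. All 10 were found in the murine table, and 0 were called in any comparison by edgeR or DESeq2. Over the whole murine table edgeR called 0% of genes in each comparison (15011 tested, or 15029 for Lean), and DESeq2 called 0.0841% for Chemo against CTRL, 1.41% for MC against CTRL, 0.709% for MC + Chemo against CTRL, 0.126% for MC + Chemo against Chemo, 0.0481% for MC + Chemo against MC, 0% for the interaction and 0.00601% for Lean against CTRL.

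Murine Herpud1 was at 491, 421, 530, 503 and 574 in Chemo and at 569 to 811 (median 649) in MC + Chemo, with 1 MC + Chemo library below the highest Chemo library. The difference was 0.42 (SE 0.14; edgeR p = 0.00857, adjusted p = 0.292; exact permutation p = 0.00649), beside 0.45 for human HERPUD1. The Herpud1 interaction was 0.49 (SE 0.21, edgeR adjusted p = 0.695). In MC + Chemo against Chemo 2 of the 10 murine counterparts had an unadjusted edgeR p under 0.05, Herpud1 and Chac1. Chac1 was at 2.38 (SE 0.80; edgeR p = 0.00755, adjusted p = 0.285; exact permutation p = 0.0649), with a mean normalized count of 6.47. The mean levels of host cell type markers differed between the same groups, and these differences were not tested. Of 8 markers, 6 had a higher mean in MC + Chemo than in Chemo, and all 8 were detected in every library. The adipocyte gene Adipoq was at 49.4 to 858 (median 352) in Chemo and 34.8 to 7069 (median 693) in MC + Chemo, and the muscle gene Ckm at 7.20 to 95.4 (median 10.1) and 8.09 to 4520 (median 70.1). Lower means in MC + Chemo were found for the leukocyte gene Ptprc, at 1580 and 1161, and the vessel gene Pecam1 (CD31), at 778 and 575. The summed level of the 8 markers was 18508 to 39651 in Chemo, 24289 to 35658 in MC and 19840 to 35748 in MC + Chemo. The part of the makeup of the host tissue in the murine differences was not tested. Murine Xbp1 was at 483, 519, 594, 497 and 491 in MC and at 595 to 894 (median 654) in MC + Chemo, without overlap, as held for 0.886% of murine genes. That difference was 0.39 (SE 0.14; edgeR p = 0.00992, adjusted p = 0.475; exact permutation p = 0.00866), beside 0.26 for human XBP1. How reads that match both genomes were assigned is not given in the sources used here, so human and murine values from 1 library may share reads, which was not tested. Over the 24 libraries HERPUD1 and Herpud1 had 15637 and 14687 reads, and HSPA5 and Hspa5 had 263794 and 242958. In single libraries HSPA5 and Hspa5 had 12691 and 12682 reads in Lean 3, and 12298 and 9127 in MC + Chemo 25. HERPUD1 and Herpud1 had 650 and 612 in Lean 24, and 479 and 619 in Chemo 34. The values of these genes can therefore not be assigned to tumor or host cells alone. PPP1R15A and Ppp1r15a had 34519 and 1553. CHAC1 and Chac1 had 6402 and 170, so the murine Chac1 level rests on few reads.

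**Figure D3:**
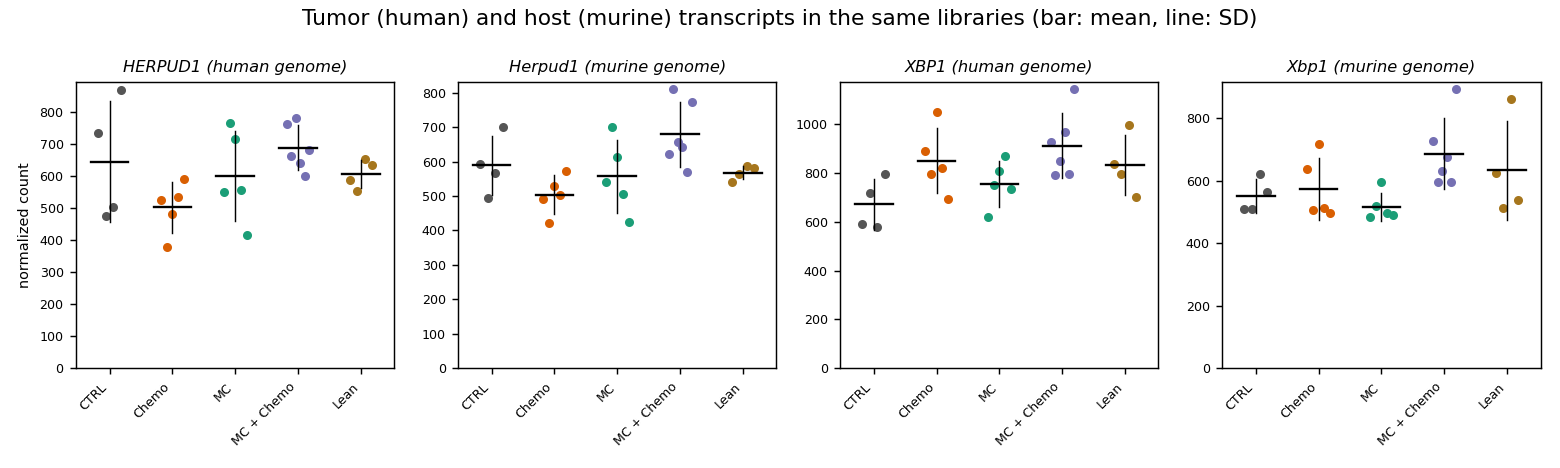
Normalized counts (vertical axes, starting at 0) of HERPUD1 and XBP1 on the human genome and of Herpud1 and Xbp1 on the murine genome in the same 24 libraries, with group mean (bar) and SD (line). The MC + Chemo libraries of HERPUD1, at 600 to 781, sit above all Chemo libraries, and those of Herpud1 overlap the Chemo libraries at 569 to 574.

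The 10 genes moved together only in part. Each gene was turned into a z-score over the 24 libraries, and the mean over the 10 genes was -1.91 in CTRL 44 and -1.17 in MC 6, and between -0.51 and 0.63 in the other 22 libraries. CTRL 44 was the lowest of all libraries in 5 of the 10 genes, ATF3, ATF4, TRIB3, ASNS and XBP1. MC 6 was the lowest in DDIT3 and CHAC1, and CTRL 17 the highest in HSPA5 and PPP1R15A. All 6 MC + Chemo libraries had a mean z between 0.0881 and 0.63 (median 0.20), and Lean ran from -0.17 to 0.32. MC ran from -1.17 to 0.50 (median 0.23), Chemo from -0.51 to 0.38 and CTRL from -1.91 to 0.51.

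**Figure D4:**
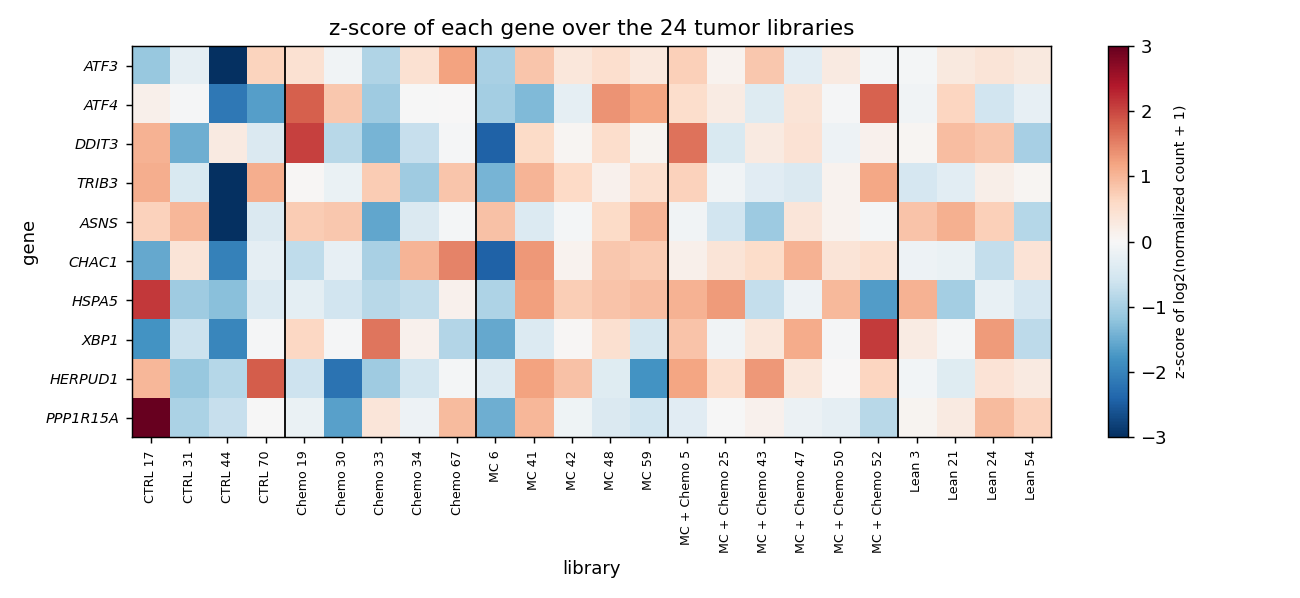
Heat map of the z-score of log2(normalized count + 1) of the 10 human genes (rows) in the 24 libraries (columns, by group). CTRL 44 (mean z -1.91) and MC 6 (-1.17) are low in most rows, and CTRL 17 is high in HSPA5 and PPP1R15A.

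Over the 45 pairs of the 10 genes the median Pearson correlation across 24 libraries was 0.31, and 0.23 after the group means were removed, with 4 pairs over 0.5 and 6 pairs below 0. As descriptions over libraries that share a scaling, ATF3 and CHAC1 had r = 0.71 (rho = 0.53), ATF3 and TRIB3 r = 0.68 (rho = 0.34), ATF4 and ASNS r = 0.60 (rho = 0.48) and HSPA5 and PPP1R15A r = 0.50 (rho = 0.39). With the 2 libraries farthest from the median left out, these were 0.61, 0.41, 0.40 and 0.29. Those libraries were CTRL 17 and CTRL 44 for both ATF3 pairs, Chemo 19 and CTRL 44 for ATF4 and ASNS, and MC + Chemo 25 and CTRL 17 for HSPA5 and PPP1R15A.

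**Figure D5:**
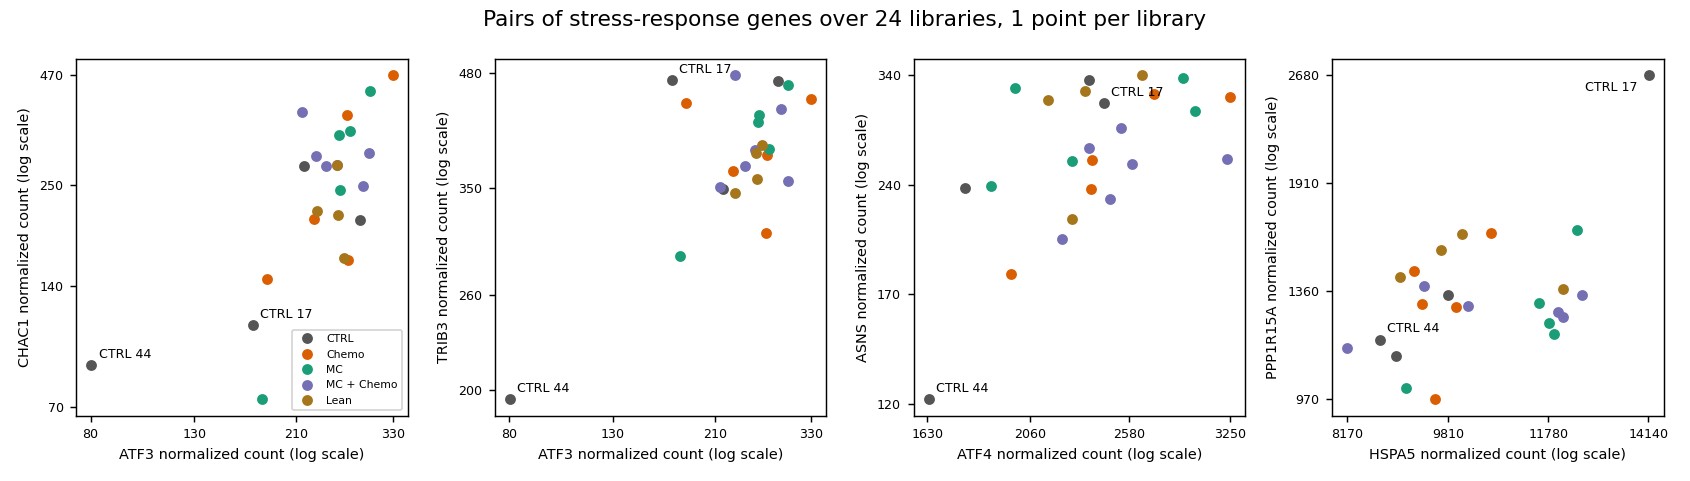
Normalized counts on log axes of pairs of the 10 human genes in the 24 libraries, 1 point per library, colored by group. ATF3 and CHAC1 (r = 0.71) rise together across groups, and the CTRL 44 library lies at the low end of the ATF3 axis.

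The human genes whose log2 levels followed the mean z-score of the 10 genes best over the 24 libraries were SLC3A2 (r = 0.86), the heavy chain of amino acid transporters, PSMF1 (0.84), an inhibitor of the proteasome, DNAJB2 (0.83), a co-chaperone, ATP6V1E1 (0.81), a subunit of the vacuolar proton pump, and RBM48 (0.81), an RNA-binding protein. The median correlation of all 12663 genes compared was -0.00307. SLC3A2 is in the ATF4 target list. Spearman's rho of these 5 genes was 0.79, 0.73, 0.54, 0.65 and 0.56.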

How the data were processed

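The tables as deposited by the authors give read counts per gene, made with the BlueBee software from QuantSeq 3′ libraries (50 bp forward reads), 1 table per genome. The normalized tables deposited by the authors hold a signal, the same counts divided by DESeq2 size factors (0.733 to 1.65 for the human table). The submitters' processing notes name GRCm38 and DESeq2 1.22.2. The human build is not given in the sources used here. The tables carry no positions, and no sequence was analysed here. PGR was not analysed here.

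Raw counts were fitted with edgeR 4.0.16 (R 4.3.3; TMM scaling, filterByExpr, quasi-likelihood F test, two-sided, Benjamini-Hochberg adjustment over all genes tested), in the 20 libraries of obese hosts, or in all 24 for Lean. The criteria, an adjusted p under 0.05, a mean normalized count over 30 and a fold change over 1.5, are those of the study. DESeq2 1.42.0 was the alternative. Exact permutation tests compared log2(normalized count + 1). The scripts were tested on simulated data. The SE and 95% interval come from the fitted model, and depth sets counting error only.

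The genes named were the 10 genes, their murine namesakes, per list up to 5 called genes or otherwise the 2 with the lowest p, and the 5 genes closest to the mean z-score; not all of these are printed. The members and lists were chosen with earlier results of these data known, and the fit without CTRL 17 and CTRL 44 was chosen after seeing the data. Other alternatives were upper-quartile and DESeq2 scaling, no filter, other sets of libraries, MC + Chemo 5 counted as MC, without the 3 libraries with an extra column cleanup (Lean 3, MC 41, MC 42), and each library left out. Each library is a different mouse, and the comparisons share libraries, so their results are not independent.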

Additional observations from a re-analysis of the deposited data

Results flagged for a closer look

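In 3 cases 1 library stood far from the others of its group, with a gap to the nearest library above Dixon's 95% critical value. DDIT3 in MC 6 was at 234 normalized counts and the next MC library at 342, a gap of 0.79 of the range. HSPA5 in MC 6 was at 9097 and the next at 11583, a gap of 0.75 of the range. PPP1R15A in CTRL 17 was at 2681 and the next at 1345, a gap of 0.85 of the range. There were 50 combinations of gene and group, so 6% stood out, and chance alone marks about 1 in 20.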

How the results depend on the processing

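No paired analysis was possible because every library came from a mouse with its own number and the groups share none. Of the 10 genes, 0 were called by any alternative in any comparison, over 1350 pairs of a result and an alternative, and 125 of these pairs changed sign. PPP1R15A ran from -0.39 to 0.12 in Chemo against CTRL, from -0.45 to 0.070 in MC against CTRL, from -0.45 to 0.065 in MC + Chemo against CTRL and from -0.13 to 0.39 in the interaction as each library was left out, and the sign reversed where CTRL 17 was the library left out. Without CTRL 17 and CTRL 44 these were 0.10, 0.049, 0.048 and -0.10, XBP1 in MC against CTRL was -0.00987, and CHAC1 in Lean against CTRL was -0.14. VIM, called in MC + Chemo against CTRL at -1.78, was at 0.031 without both. All-gene calls in MC + Chemo against CTRL were 795 with DESeq2, 508 with all 24 libraries in the fit, 1162 without CTRL 31, 880 without CTRL 70, and 0 without CTRL 17, without CTRL 44, without MC + Chemo 47, without MC + Chemo 52 or with the 2 groups alone. Those in Chemo against CTRL were 483 with DESeq2, 1174 without CTRL 31, 615 without CTRL 70 and 0 under the other alternatives. The cause was not tested. With 4 to 6 libraries a group, the intervals of CHAC1 and ATF3 do not exclude a 1.5-fold change from CTRL.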
